A study of Xenopus laevis with 37 samples.

Results

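Foregut explants of Xenopus laevis embryos given a heat pulse to switch on a Dkk1 transgene were compared with foregut explants of unheated embryos, across all genes. The comparison rests on 4 of the 37 libraries in the series, taken by their titles: 2 heated (FG HSdkk1) and 2 unheated (FG noHS). The series measured RNA from foregut (FG) and hindgut (HG) explants at stage NF20, a late neurula stage, after treatments that block or activate Wnt or BMP signalling. The FG HSdkk1 embryos spent 30 min at 37 C and were then kept at 13 C, a pulse meant to switch on hsp:Dkk1GFP, a transgene in which a heat shock promoter drives the secreted Wnt antagonist Dkk1 with a green fluorescent protein. The FG noHS group is labelled as without heat shock. Both groups carry the genotype label wild type, and neither the stage of the pulse nor whether the unheated embryos carried the transgene is given in the sources used here. A heat shock promoter is not tied to 1 tissue. No heated group without the transgene was analysed here, so an effect of heat and an effect of Dkk1 cannot be told apart. Other libraries, all of stage NF20 and labelled wild type, serve to describe the genes. These are the same conditions in hindgut explants (HG HSdkk1 and HG noHS, 2 libraries each), foregut explants of embryos kept from stage NF12 in the GSK3 inhibitor BIO at 60 µM or in its vehicle DMSO (FG BIO and FG DMSO, 3 each), and vehicle-treated hindgut (HG DMSO, 3). Also used were foregut explants labelled mesoderm or endoderm (FG meso and FG endo, 2 each).

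Canonical Wnt signalling works by keeping beta-catenin from being broken down, so that it can enter the nucleus and switch on targets with TCF and LEF proteins. Dkk1 binds the Lrp5 and Lrp6 co-receptors and so keeps Wnt ligands from signalling. In vertebrate embryos a gradient of Wnt activity, high at the tail end, helps to set the head-to-tail pattern: cdx and Hox genes are activated posteriorly, while head, heart and foregut form where Wnt activity is kept low. BIO acts in the opposite direction, since GSK3 marks beta-catenin for breakdown.

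Values are TPM (transcripts counted relative to the library's total, scaled for transcript length). Of 40271 features in the table, 28863 reached 1 TPM in at least 2 of the 37 libraries and were tested. Between 20147 and 21344 features reached 1 TPM in the 4 foregut libraries, and TPM keeps no read counts, so the depth is unknown. Differences are means of log2(TPM + 1), FG HSdkk1 minus FG noHS, from limma fitted to all 37 libraries, with SE the standard error, and a gene was called at a Benjamini-Hochberg adjusted p under 0.05. Adding 1 TPM makes the differences of genes with low TPM smaller. The frog's duplicated genome holds an .L and an .S copy (homeolog) of many genes, and these were tested apart. Across features, FG noHS replicate 1 correlated with FG HSdkk1 replicate 1 at 0.977 and the replicate 2 libraries with each other at 0.981, while the libraries of a group correlated at 0.956 (FG noHS) and 0.963 (FG HSdkk1). The libraries thus resembled each other more by replicate number than by treatment.

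The targeted gene did not differ in the direction of the label. For dkk1.L the level was 15.9 and 20.8 TPM in FG noHS and 14.7 and 16.8 TPM in FG HSdkk1. For dkk1.S it was 10.2 and 13.6 TPM in FG noHS and 9.78 and 12.9 TPM in FG HSdkk1. The log2 differences were −0.20 (SE 0.53) and −0.07 (SE 0.56). Within each replicate number both copies were lower in the heated library, while the 2 groups overlapped for both copies. Thus RNA assigned to the gene itself does not separate heated from unheated libraries at the stage of collection, and whether the deposited values count RNA of the transgene is not given in the sources used here. Below, FG HSdkk1 means the libraries labelled so, and every direction rests on that label. With BIO, dkk1.S rose: it was at 17.4 ± 9.73 TPM (SD, n = 3) in FG DMSO and at 82.3 ± 39.8 TPM (n = 3) in FG BIO, a log2 difference of 2.15 (SE 0.46, limma adjusted p = 0.00352). The copy dkk1.L was not among the features that passed there with at least a 2-fold change.

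Few features passed the test. limma called 7 of 28863 features (0.0243%), 5 higher (0.0173%) and 2 lower (0.00693%) in FG HSdkk1, and 524 (1.82%) had an unadjusted p under 0.05, fewer than the 1443 that p-values spread evenly would give. No gene that the text names by a known function passed. The called features are near 0 TPM in 1 of the groups. The largest difference was that of Xelaev18007944m.g, at 0 and 0 TPM in FG noHS and 20.9 and 13.2 TPM in FG HSdkk1 (4.14, SE 0.61). Xelaev18015158m.g (1.95, SE 0.31) and Xelaev18018961m.g (1.70, SE 0.20) were listed at 0 in both FG noHS libraries too. In FG HSdkk1 they were at 4.94 and 1.53 TPM and at 3.81 and 1.18 TPM. Over 13 alternatives that gave a value, LOC100489362.L kept its call in 5 and MGC69088.L in 8. LOC100489362.L, which rose, was at 0.28 and 0.52 TPM in FG noHS and 2.77 and 3.73 TPM in FG HSdkk1 (1.60, SE 0.29, adjusted p = 0.0412), and it also rose in hindgut, from 0.25 and 0.38 to 3.13 and 6 TPM (adjusted p = 0.00318). MGC69088.L was at 0 and 0.11 TPM in FG noHS and 1.64 and 1.27 TPM in FG HSdkk1 (1.22, SE 0.17, limma adjusted p = 0.00098). The 2 lower features carry only a model ID. Xelaev18006344m.g was at 1.12 and 2.61 TPM in FG noHS and listed at 0 in both heated libraries. Xelaev18021743m.g was at 1.31 and 4.89 against 0 and 0.44 TPM. Of the 8 heat shock libraries, these 2, Xelaev18015158m.g, Xelaev18018961m.g and MGC69088.L reached 1 TPM only in the foregut group where they were higher. These features could thus pass the filter through that group alone, so their calls are no independent support for a change. Apart from MGC69088.L, their log2 differences with BIO, region and layer were 0, so those comparisons do not describe them. Fits to fewer libraries called none: 0 with the 4 foregut libraries alone and 0 with the 8 heat shock libraries, with 919 and 930 at an unadjusted p under 0.05. The count was also 31 without the filter on low values, and 20, 4, 3 and 10 without FG noHS replicate 1, FG noHS replicate 2, FG HSdkk1 replicate 1 and FG HSdkk1 replicate 2.

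**Figure D1:**
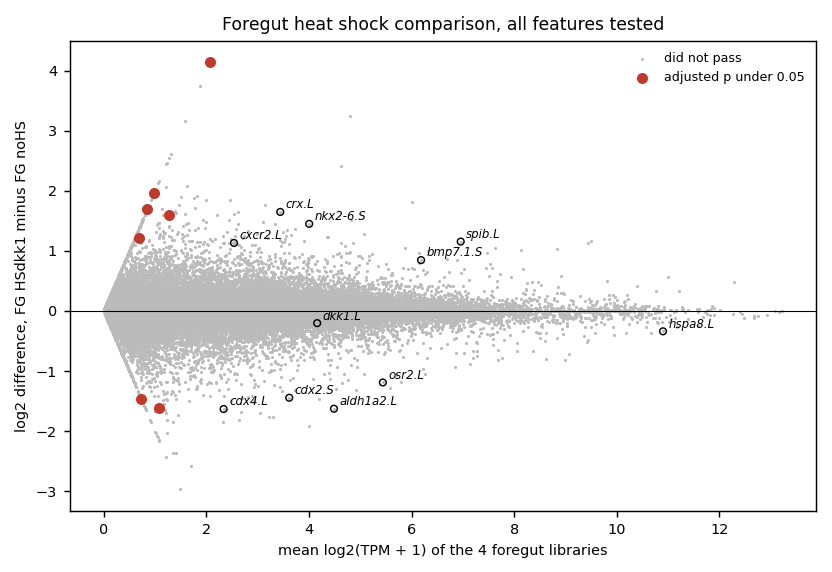
Each point is 1 of the 28863 tested features, with the mean log2(TPM + 1) of the 4 foregut libraries on the x axis and the log2 difference, FG HSdkk1 minus FG noHS, on the y axis; red points passed the test and ringed points are labelled genes. The 7 red points lie at low levels, while the labelled genes, with differences between −1.63 for aldh1a2.L and 1.65 for crx.L, did not pass.

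Since named genes did not pass, the sections that follow give each library's value and say whether both heated libraries lay outside both unheated ones. Foregut values of a gene are listed with replicate 1 first. Overlapping groups can still differ the same way within each replicate number, by which the libraries resembled each other more. Over all features tested, both heated libraries lay above both unheated ones for 11.8% and below them for 8.79%. Of the 153 genes named by rule, 149 had an adjusted p of 1. The exceptions were the 2 called genes above, cxcr2.L (adjusted p = 0.244) and dynll2.L (adjusted p = 0.836). Unadjusted p-values from limma are given for some genes to order them, not as calls. In explants of several tissues, fewer cells with a transcript and less transcript per cell cannot be told apart.

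Direct Wnt targets tended to the lower side, led by the cdx genes. Of 81 listed features in the table, 78 were tested and none was called; 26 of the 78 (33.3%) lay lower in both heated libraries and 4 (5.13%) higher. Their median log2 difference was −0.29, against 0.01 for all features, and it ranged from −0.32 to −0.19 with each library left out. Their summed level overlapped, at 2050.2 to 2448 TPM unheated and 2036 to 2349 TPM heated. The caudal homeobox gene cdx4.L, an activator of posterior Hox genes, was at 13.4 and 4.48 TPM in FG noHS and 2.68 and 1.24 TPM in FG HSdkk1, a difference of −1.63 (SE 0.49), unadjusted p = 0.00274. For cdx2.L, which later specifies the intestine in vertebrates, the level was 35.8 and 20.9 TPM in FG noHS and 13.2 and 12.2 TPM in FG HSdkk1, a difference of −1.05 (SE 0.37). In both genes the 2 groups did not overlap, and the heated mean was 0.219 and 0.448 of the unheated one. The copy cdx2.S was at 35.4 and 10.2 TPM in FG noHS and 12.3 and 3.14 TPM in FG HSdkk1, where the groups overlapped, with unheated replicate 2 below heated replicate 1. Within each replicate number cdx2.S was lower in the heated library. The less abundant cdx1.S was at 5.17 and 5.29 TPM in FG noHS and 2.36 and 3.61 TPM in FG HSdkk1, without overlap. The presomitic mesoderm factor msgn1.L, at 2.83 and 3.26 TPM in FG noHS and 0.29 and 1.69 TPM in FG HSdkk1, also lay lower in both heated libraries.

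The feedback genes most used as Wnt readouts mostly overlapped between the groups. The level of axin2.L, a scaffold of the complex that breaks down beta-catenin, was 2.56 and 1.14 TPM in FG noHS and 1.61 and 0.93 TPM in FG HSdkk1. That of sp5.L, a zinc finger repressor, was 2.36 and 1.6 TPM in FG noHS and 1.61 and 1.62 TPM in FG HSdkk1. And that of lef1.L, a partner of beta-catenin on DNA, was 18.1 and 31.4 TPM in FG noHS and 17.4 and 25.1 TPM in FG HSdkk1. All 3 overlapped between the groups, with differences of −0.30 (SE 0.41), −0.18 (SE 0.47) and −0.18 (SE 0.32). By replicate number, axin2.L and lef1.L were lower in both heated libraries, and sp5.L in replicate 1 only. Among their copies sp5.S and lef1.S overlapped too, while axin2.S, at 1.34 and 1.23 TPM in FG noHS and 1.13 and 0.94 TPM in FG HSdkk1, lay slightly lower without overlap (−0.17, SE 0.38). Unheated levels of axin2.L and sp5.L were near 1 to 3 TPM, against 71.5 ± 13.2 and 112 ± 18.6 TPM (SD, n = 3) in FG BIO and 7.06 ± 2.24 and 1.05 ± 0.677 TPM in FG DMSO.

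**Figure D2:**
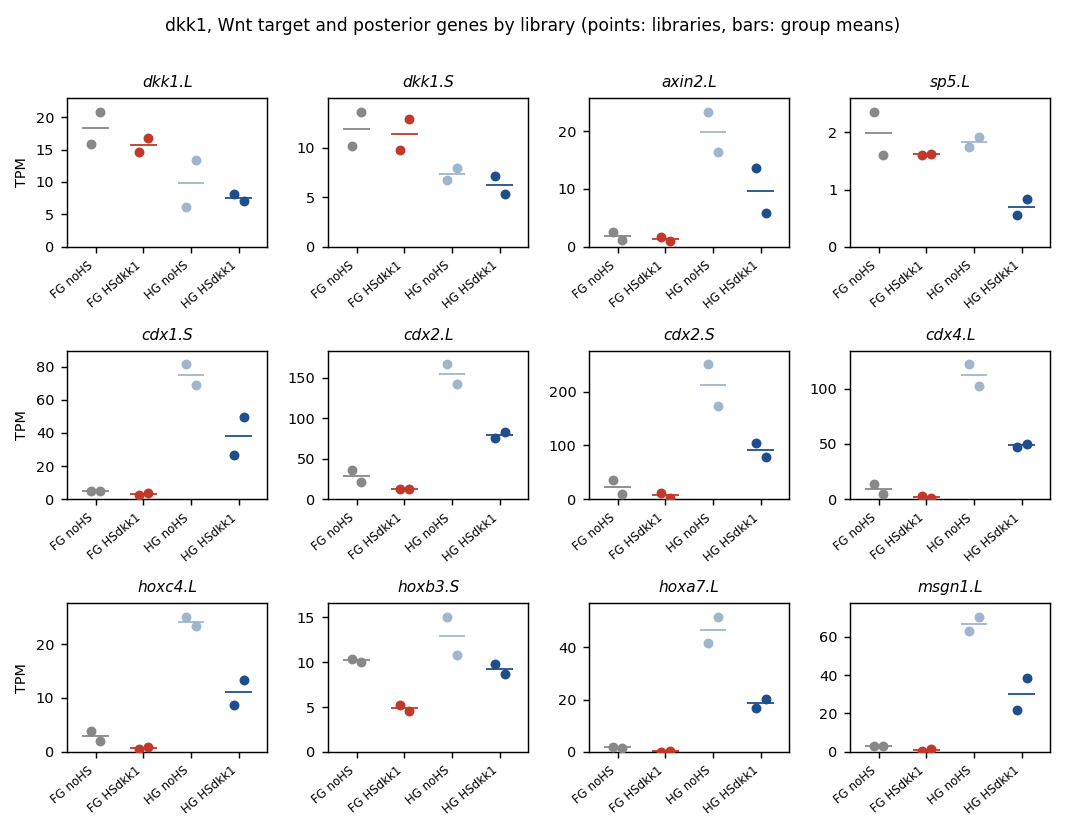
TPM of dkk1, Wnt target and posterior genes in each of the 8 heat shock libraries, foregut and hindgut, with points for libraries and lines for means of 2; each panel has its own linear axis from 0. In foregut the cdx2.L, cdx4.L, hoxc4.L, hoxb3.S, hoxa7.L and msgn1.L points of FG HSdkk1 lie below both FG noHS points, while the dkk1, axin2.L and sp5.L points overlap.

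Anterior Hox genes were the list with the largest share on one side. Of 30 features of Hox groups 1 to 5, which pattern hindbrain and pharyngeal levels, all 30 were tested; 19 (63.3%) lay lower in both heated libraries, 0 lay higher in both, and none was called. The median difference was −0.47, between −0.57 and −0.29 with each library left out, and the summed level was 274 to 322 TPM unheated and 186 to 229.9 TPM heated. The level of hoxc4.L was 3.91 and 2.01 TPM in FG noHS and 0.52 and 0.87 TPM in FG HSdkk1, that of hoxc4.S 8.65 and 4.89 TPM in FG noHS and 3.09 and 2.64 TPM in FG HSdkk1. For hoxb3.S it was 10.3 and 10.1 TPM in FG noHS and 5.18 and 4.58 TPM in FG HSdkk1, and for hoxb5.S 3.49 and 2.65 TPM in FG noHS and 0.68 and 0.96 TPM in FG HSdkk1. All 4 lay lower without overlap, with differences between −1.19 and −0.93, the largest −1.19 (SE 0.47) for hoxc4.L. Of group 1, at the head end of the clusters, hoxb1.L, chosen after its values were seen, was at 18.8 and 18.4 TPM in FG noHS and 21.8 and 15.9 TPM in FG HSdkk1, with overlap.

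Trunk and tail Hox genes are scarcely present in foregut. Of 44 features of groups 6 to 13 in the table, 41 were tested, 11 (26.8%) lay lower and 2 (4.88%) higher in both heated libraries, and the median was 0. The summed level of the list was 32.1 to 42.1 TPM in FG noHS and 12.7 to 26.6 TPM in FG HSdkk1, against 539 to 681 TPM in HG noHS. The level of hoxa7.L was 1.95 and 1.59 TPM in FG noHS and 0.09 and 0.4 TPM in FG HSdkk1, that of hoxc6.S 4.33 and 4.93 TPM in FG noHS and 1.18 and 1.75 TPM in FG HSdkk1, and that of hoxb7.L 2.59 and 4 TPM in FG noHS and 0.8 and 0.44 TPM in FG HSdkk1. Each lay lower without overlap, with differences of −1.16 (SE 0.30), −1.20 (SE 0.42) and −1.40 (SE 0.58). Whether the share of hindgut tissue in the explants differed between groups was not tested; the wider hindgut and tail bud list had a median of −0.05, with 11 of 59 features (18.6%) lower and 5 (8.47%) higher in both heated libraries, and a summed level of 729.5 to 794 TPM unheated and 712 to 748 TPM heated. The hindgut marker hoxa9.L was at 0 and 0 TPM in FG noHS and 0 and 0.19 TPM in FG HSdkk1. At that level no fall could show. The other hindgut markers chosen, cdx2 and cdx4, were present in FG noHS. As given above with the Wnt targets, cdx2.L and cdx4.L lay lower in both heated libraries.

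Wnt receptor genes lay on both sides: both copies of fzd8 and 1 copy of fzd6 were higher, and 1 copy of lrp6 lower. Of 34 tested features of receptors and co-receptors, 6 (17.6%) lay higher and 7 (20.6%) lower in both heated libraries. Their median was −0.02. Over all features the shares were 11.8% higher and 8.79% lower. The Frizzled receptor gene fzd8.S was at 20.7 and 23.9 TPM in FG noHS and 48.9 and 37.7 TPM in FG HSdkk1, and its copy fzd8.L, named after its values were seen, at 9.61 and 19.2 TPM in FG noHS and 26.7 and 24.7 TPM in FG HSdkk1. Another Frizzled gene, fzd6.L, was at 5.82 and 6.44 TPM in FG noHS and 13.3 and 9.18 TPM in FG HSdkk1. The differences were 0.92 (SE 0.46), 0.86 (SE 0.55) and 0.76 (SE 0.25), while the fzd6.S copy, at 2.62 and 1.37 TPM in FG noHS and 1.76 and 1.46 TPM in FG HSdkk1, overlapped. The co-receptor lrp6.L, which Dkk1 binds, was at 5.16 and 6.1 TPM in FG noHS and 3.81 and 4.24 TPM in FG HSdkk1, lower without overlap by a difference of −0.40 (SE 0.39), and its copy lrp6.S overlapped (−0.07, SE 0.43). Both lrp6 copies were chosen for their role after their values were seen. The Frizzled gene fzd10.L was at 9.75 and 6.72 TPM in FG noHS and 7.48 and 3.65 TPM in FG HSdkk1, which overlapped.

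Of 33 tested features of secreted Wnt antagonists, 5 (15.2%) lay higher and 7 (21.2%) lower in both heated libraries. Their median of 0.03 ran from −0.20 to 0.09 with a library left out. Their summed level was 534 to 861 TPM unheated and 1089.6 to 1158 TPM heated, higher without overlap. The list holds dkk1 itself, and szl, which the BMP list holds too. By its values given below with the BMP genes, szl.L makes up much of this rise. The sum without szl was not computed. The crescent gene frzb2.S was at 2.98 and 8.87 TPM in FG noHS and 1.8 and 2.4 TPM in FG HSdkk1, and trabd2a.L, which codes for a protease that acts on Wnt ligands, at 6.32 and 3.84 TPM in FG noHS and 2.93 and 2.45 TPM in FG HSdkk1. Both lay lower without overlap, at −1.02 (SE 0.67) and −0.69 (SE 0.42). The foregut marker sfrp5.L, a secreted Frizzled-like antagonist, was at 3.45 and 3.14 TPM in FG noHS and 4.25 and 5.35 TPM in FG HSdkk1, higher without overlap at 0.43 (SE 0.36), while sfrp5.S overlapped (−0.03, SE 0.42). Of 31 tested Wnt ligand features, 5 (16.1%) lay lower and 4 (12.9%) higher. The posteriorizing ligand wnt8a.L was at 10.6 and 16.2 TPM in FG noHS and 3.9 and 9.42 TPM in FG HSdkk1, a difference of −0.98 (SE 0.57). Of 44 features of the intracellular pathway, 6 (13.6%) lay lower and 2 (4.55%) higher, with a median of −0.03. The beta-catenin gene ctnnb1.S was at 205 and 321 TPM in FG noHS and 174 and 264 TPM in FG HSdkk1, which overlapped.

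Heart and lateral plate genes lay on both sides. Of 54 listed features in the table, 48 were tested; 14 (29.2%) lay higher in both heated libraries and 7 (14.6%) lower, with a median of 0.07 and none called. Their summed level was 849 to 1165 TPM unheated and 1126 to 1166 TPM heated. The homeobox gene nkx2-3.S, expressed in heart, pharynx and gut mesoderm, was at 12.8 and 19.4 TPM in FG noHS and 36.0 and 35.2 TPM in FG HSdkk1, a difference of 1.13 (SE 0.44). The cardiac factor nkx2-5.S was at 12.9 and 22.3 TPM in FG noHS and 34.7 and 31.4 TPM in FG HSdkk1, and the T-box gene tbx20.L, active in heart progenitors, at 12.2 and 23.1 TPM in FG noHS and 37.3 and 36.2 TPM in FG HSdkk1. These did not overlap, nor did isl1.S, a marker of the second heart field, at 16.1 and 18.0 TPM in FG noHS and 34.8 and 30.3 TPM in FG HSdkk1. The pharyngeal and heart gene nkx2-6.S was at 5.88 and 12.7 TPM in FG noHS and 32.0 and 20.3 TPM in FG HSdkk1, a difference of 1.45 (SE 0.45), unadjusted p = 0.00328. In the layer libraries tbx20.L was higher in those labelled mesoderm, which also held skin RNA, than in endoderm by 3.26 (SE 0.44, limma adjusted p = 1.06e-06). In the heart and lateral plate list the gut mesenchyme gene foxf1.L, named after its values were seen, was lower. It was at 14.4 and 10.9 TPM in FG noHS and 8.45 and 5.03 TPM in FG HSdkk1 (−0.85, SE 0.43).

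Early myeloid and blood vessel genes lay on the higher side as well. Of 57 listed features in the table, 44 were tested; 15 (34.1%) lay higher and 1 (2.27%) lower in both heated libraries. Their median was 0.44, between 0.19 and 0.57 with each library left out. The myeloid transcription factor gene spib.S was at 42.3 and 37.0 TPM in FG noHS and 104 and 66.0 TPM in FG HSdkk1, and cebpa.S, which drives the myeloid lineage, at 21.7 and 29.1 TPM in FG noHS and 45.9 and 50.3 TPM in FG HSdkk1. They lay higher without overlap, at 1.05 (SE 0.42) and 0.91 (SE 0.33). The chemokine receptor gene cxcr2.L, found on neutrophils in mammals, was at 3.03 and 2.83 TPM in FG noHS and 9.45 and 6.09 TPM in FG HSdkk1, a difference of 1.13 (SE 0.25), unadjusted p = 9.29e-05, the smallest among named genes that were not called. It passed with a pseudocount of 5 (limma adjusted p = 0.0154) and in none of the other 13 alternatives. The difference of its copy cxcr2.S, which was not called, ran from −0.063 to 1.18 over the alternatives. The vessel receptor tek.L was at 0.93 and 2.45 TPM in FG noHS and 4.58 and 3.12 TPM in FG HSdkk1. In contrast gfi1b.L, a factor of red cell precursors in mammals, was at 8.41 and 3.11 TPM in FG noHS and 3.44 and 0.68 TPM in FG HSdkk1, which overlapped, with a difference of −1.19 (SE 0.52). The summed level of the list was 1177 to 1384 TPM unheated and 1699 to 1886 TPM heated.

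**Figure D3:**
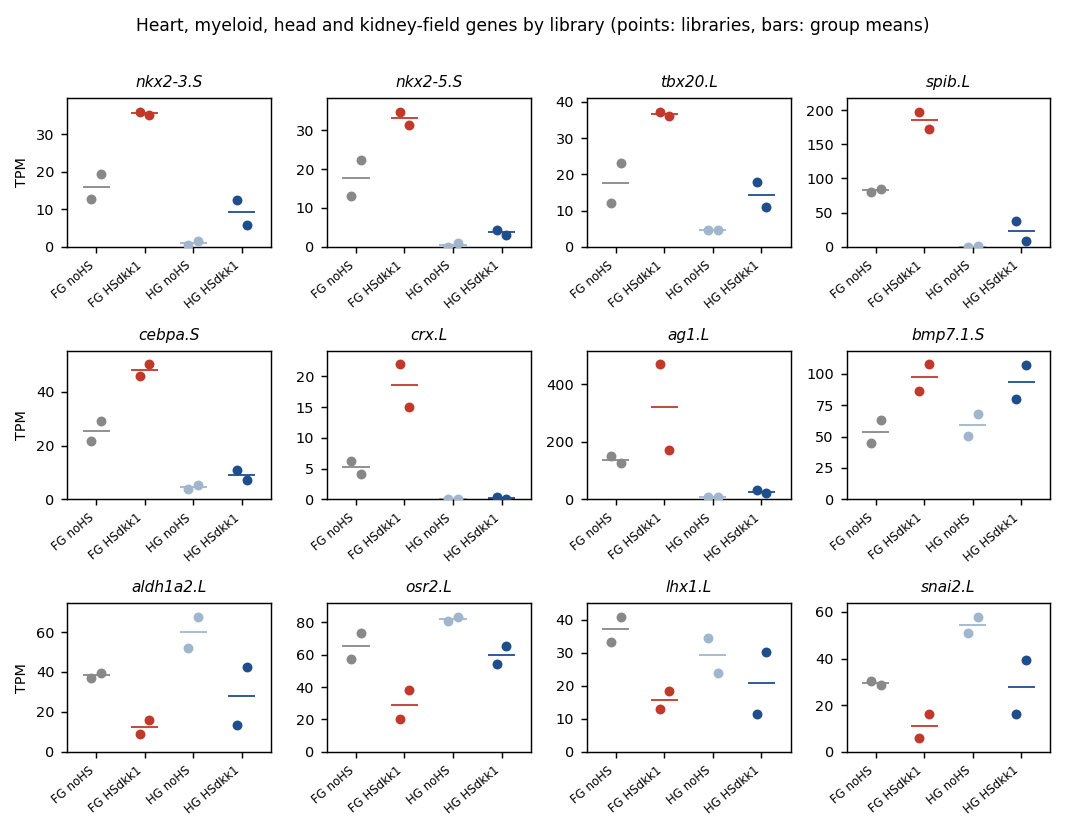
TPM of heart, myeloid, head, BMP, retinoic acid, kidney-field and neural crest genes in each of the 8 heat shock libraries, with points for libraries and lines for means of 2; each panel has its own linear axis from 0. In foregut, nkx2-3.S, nkx2-5.S, tbx20.L, spib.L, cebpa.S, crx.L, ag1.L and bmp7.1.S lie higher in both heated libraries, with ag1.L highest in replicate 1, and aldh1a2.L, osr2.L, lhx1.L and snai2.L lie lower.

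BMP ligand and target genes as a list leaned the same way, while the ventx genes tended lower. Of 58 tested features 17 (29.3%) lay higher and 4 (6.90%) lower in both heated libraries, with a median of 0.20, between 0.09 and 0.38 with each library left out. The ligand bmp7.1.S was at 45.1 and 62.9 TPM in FG noHS and 86.6 and 108 TPM in FG HSdkk1, a difference of 0.85 (SE 0.24), unadjusted p = 0.00183, and bmp7.1.L at 107 and 181 TPM in FG noHS and 190.2 and 300.4 TPM in FG HSdkk1. The feedback inhibitor bambi.L, a decoy receptor, was at 227 and 296 TPM in FG noHS and 338 and 379.9 TPM in FG HSdkk1, and the target msx2.L at 8.14 and 10.3 TPM in FG noHS and 22.5 and 14.3 TPM in FG HSdkk1. None of these overlapped. The ventral antagonist szl.L was at 249 and 409 TPM in FG noHS and 664 and 639 TPM in FG HSdkk1, a difference of 1.03 (SE 0.85). The id3 and msx1 copies, also BMP targets, had differences between 0.05 and 0.10 with overlap. The ventral factor ventx1.1.L lay the other way, at 8.8 and 3.89 TPM in FG noHS and 4.67 and 2.04 TPM in FG HSdkk1, with overlap. More ventx features, named after their values were seen, went with it. The level of ventx1.2.S was 17.7 and 12.3 TPM in FG noHS and 10.5 and 5.35 TPM in FG HSdkk1, lower without overlap (−0.89, SE 0.52). For ventx1.1.S, ventx1.2.L, ventx3.2.S and ventx3.2.L the differences were between −0.74 and −0.16, with overlap.

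Genes of the kidney field and intermediate mesoderm lay on the lower side. Of 36 tested features of the pronephros, the larval kidney, 14 (38.9%) lay lower and 1 (2.78%) higher in both heated libraries, with a median of −0.31, between −0.45 and −0.16 with each library left out. Their summed level was 645 to 765 TPM unheated and 495 to 559.5 TPM heated. The zinc finger gene osr2.L was at 57.0 and 73.2 TPM in FG noHS and 20.2 and 38.0 TPM in FG HSdkk1, and the LIM homeobox gene lhx1.L at 33.4 and 40.9 TPM in FG noHS and 13.0 and 18.5 TPM in FG HSdkk1. Their differences were −1.19 (SE 0.38) and −1.20 (SE 0.41), and lhx1.S, at 7.69 and 13.7 TPM in FG noHS and 3.12 and 5.28 TPM in FG HSdkk1, went with them (−1.15, SE 0.44). None of the 3 overlapped between the groups. The related osr1.S was at 10.6 and 23.4 TPM in FG noHS and 4.35 and 8.24 TPM in FG HSdkk1, also without overlap.

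Retinoic acid is made by aldh1a2 and broken down by cyp26 enzymes. The level of aldh1a2.L was 37.2 and 39.7 TPM in FG noHS and 8.71 and 15.8 TPM in FG HSdkk1, a difference of −1.63 (SE 0.48), unadjusted p = 0.00214, with the heated mean at 0.318 of the unheated one. That of aldh1a2.S was 7.83 and 10.8 TPM in FG noHS and 2.75 and 7.19 TPM in FG HSdkk1, also without overlap. The breakdown enzyme gene cyp26c1.S was higher in both heated libraries, at 8.57 and 5.13 TPM in FG noHS and 25.6 and 10.6 TPM in FG HSdkk1, with the heated mean 2.64 times the unheated one. Of 28 tested features of the pathway 9 (32.1%) lay lower and 1 (3.57%) higher, with a median of −0.03. The reductase dhrs3.S, induced by retinoic acid in other vertebrates, was at 20.6 and 36.7 TPM in FG noHS and 11.3 and 20.3 TPM in FG HSdkk1, without overlap.

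Neural crest and placode features numbered 43 tested, 11 (25.6%) lower and 4 (9.30%) higher in both heated libraries, with a median of −0.13. The crest gene snai2.L was at 30.2 and 28.6 TPM in FG noHS and 6.09 and 16.2 TPM in FG HSdkk1, a difference of −1.46 (SE 0.46), and snai2.S at 4.72 and 3.29 TPM in FG noHS and 1.26 and 1.78 TPM in FG HSdkk1. Both lay lower without overlap. In the layer libraries snai2.L was higher in those labelled mesoderm, which also held skin RNA, than in endoderm by 3.65 (SE 0.46, limma adjusted p = 4.86e-07). The homeobox gene dlx2.L lay the other way, at 12.9 and 19.3 TPM in FG noHS and 37.8 and 25.7 TPM in FG HSdkk1. Of 60 neural plate features 12 (20%) lay lower and 5 (8.33%) higher; the neuronal gene neurod1.L was at 5.12 and 2.63 TPM in FG noHS and 1.38 and 1.06 TPM in FG HSdkk1, while the forebrain gene otx2.L was at 10.1 and 7.96 TPM in FG noHS and 23.3 and 19.3 TPM in FG HSdkk1. Thus members of 1 list lay on both sides, without overlap between the groups in either gene.

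Genes of the cement gland, the mucus organ at the front of the tadpole's head, lay on the higher side, with their summed level highest in heated replicate 1. Of 23 tested features of cement gland and head ectoderm 10 (43.5%) lay higher and 1 (4.35%) lower, with a median of 0.53, between 0.32 and 0.67 with each library left out. The cement gland gene ag1.L was at 149 and 125 TPM in FG noHS and 469 and 171 TPM in FG HSdkk1, a difference of 1.04 (SE 0.49). The homeobox genes hesx1.L and crx.L, of the anterior head, were at 3.78 and 4.7 TPM in FG noHS and 6.08 and 10.7 TPM in FG HSdkk1 and at 6.25 and 4.19 TPM in FG noHS and 22.0 and 15.1 TPM in FG HSdkk1, with crx.L differing by 1.65 (SE 0.45), unadjusted p = 0.00111. The summed level of the list was 1432 to 1751 TPM unheated and 2029 to 5163 TPM heated, and the highest value is that of heated replicate 1. The cement gland is no part of the foregut, and how much head tissue each explant held was not tested. Epidermis and cilia genes, which mark the skin over the foregut, had a median of 0.07 in 40 tested features, with 4 (10%) higher and 3 (7.50%) lower, and a summed level of 21709 to 22280 TPM unheated and 22019 to 23850 TPM heated. The epidermal lectin gene itln1.L was at 4527 and 2692 TPM in FG noHS and 5311 and 2349.5 TPM in FG HSdkk1, and the epidermal keratin gene krt12.S at 5996 and 5303 TPM in FG noHS and 5478 and 5361 TPM in FG HSdkk1, so skin RNA was abundant in all 4 libraries. Paraxial mesoderm and muscle features numbered 49 tested, 3 (6.12%) higher and 6 (12.2%) lower. Notochord and midline features numbered 38 tested, 5 (13.2%) higher and 10 (26.3%) lower. The muscle gene actc1.L was at 2.84 and 8.3 TPM in FG noHS and 0.14 and 13.2 TPM in FG HSdkk1, with replicate 2 high in both groups. The midline gene shh.L was at 0.12 and 0.84 TPM in FG noHS and 0.37 and 0.89 TPM in FG HSdkk1.

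Foregut endoderm genes showed no shared direction. Of 51 tested features of foregut and its organs 11 (21.6%) lay higher and 8 (15.7%) lower in both heated libraries, with a median of 0.03, and 10 and 10 after median-of-ratios scaling. Among the higher ones are nkx2-3.S, nkx2-5.S and isl1.S, which are given above with the heart genes. The foregut gene hhex.L, a repressor needed for the liver, was at 11.3 and 46.9 TPM in FG noHS and 30.8 and 39.3 TPM in FG HSdkk1. Its groups overlapped, with unheated replicate 1 far below replicate 2, and the difference was 0.56 (SE 0.62). The nuclear receptor nr5a2.L was lower without overlap, at 15.8 and 13.3 TPM in FG noHS and 10.2 and 7.35 TPM in FG HSdkk1 (−0.68, SE 0.49), and foxa2.S, a factor of endoderm and midline, was higher, at 20.7 and 18.9 TPM in FG noHS and 31.0 and 25.1 TPM in FG HSdkk1 (0.48, SE 0.31). The pancreas and duodenum gene pdx1.L was at 8.61 and 1.53 TPM in FG noHS and 5.28 and 0.74 TPM in FG HSdkk1, which overlapped. In the general endoderm list 8 of 39 features (20.5%) lay lower and 1 (2.56%) higher, with a median of −0.09 that was −0.34 without FG noHS replicate 1 and 0.03 without FG noHS replicate 2. The endoderm gene sox17a.L was at 75.1 and 135 TPM in FG noHS and 59.8 and 117 TPM in FG HSdkk1, with replicate 2 higher in both groups. The foregut genes hhex and sfrp5 and the more general endoderm genes foxa2 and sox17a were thus present in all 4 libraries.

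The chaperone list lay lower in summed level, while its median was at 0. Of 54 tested features of chaperones and the unfolded protein response 9 (16.7%) lay lower and 5 (9.26%) higher in both heated libraries, with a median of 0. The summed level was 12614 to 13349 TPM unheated and 10709 to 12415 TPM heated, without overlap. The constitutive chaperone hspa8.L was at 2285 and 2020.3 TPM in FG noHS and 1819 and 1586 TPM in FG HSdkk1, and hspa8.S at 3497 and 3212 TPM in FG noHS and 2981 and 2679.6 TPM in FG HSdkk1. Both lay slightly lower without overlap, at −0.34 (SE 0.12) and −0.25 (SE 0.12). The Hsp90 gene hsp90ab1.S was at 1467 and 1823 TPM in FG noHS and 1439.6 and 1448 TPM in FG HSdkk1, lower without overlap (−0.18, SE 0.10). Another Hsp90 gene, hsp90aa1.1.L, was at 30.3 and 30.9 TPM in FG noHS and 17.8 and 10.0 TPM in FG HSdkk1, a difference of −1.14 (SE 0.72). These 4 were named for the smallest p in the list. Among the genes outside the lists that were named for a small p, the dynein light chain gene dynll2.L was at 35.7 and 34.3 TPM in FG noHS and 18.2 and 10.1 TPM in FG HSdkk1, a difference of −1.30 (SE 0.33), unadjusted p = 0.000463. Of the same family, named for a small p or as a homeolog, dynll2.S was at 96.6 and 111 TPM in FG noHS and 48.1 and 57.8 TPM in FG HSdkk1, dynll1.S at 630.3 and 727 TPM in FG noHS and 384 and 382 TPM in FG HSdkk1, and dynll1.L at 410.0 and 426 TPM in FG noHS and 276 and 249 TPM in FG HSdkk1, all without overlap. Reads of such similar copies can be split uncertainly between them. Cell cycle features (70 tested) had 6 (8.57%) higher and 0 lower, with a median of 0.08, and p53 and cell death features (49 tested) 5 (10.2%) lower and 1 (2.04%) higher, with a median of −0.05. Immediate early and stress features (45 tested) had 6 (13.3%) lower and 2 (4.44%) higher, with a median of −0.27 that ran from −0.50 to 0.10 with a library left out. Nodal and TGF-beta features (31 tested) had 7 (22.6%) higher and 4 (12.9%) lower, and FGF features (43 tested) 4 (9.30%) higher and 5 (11.6%) lower, each list with a median of 0.03.

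**Figure D4:**
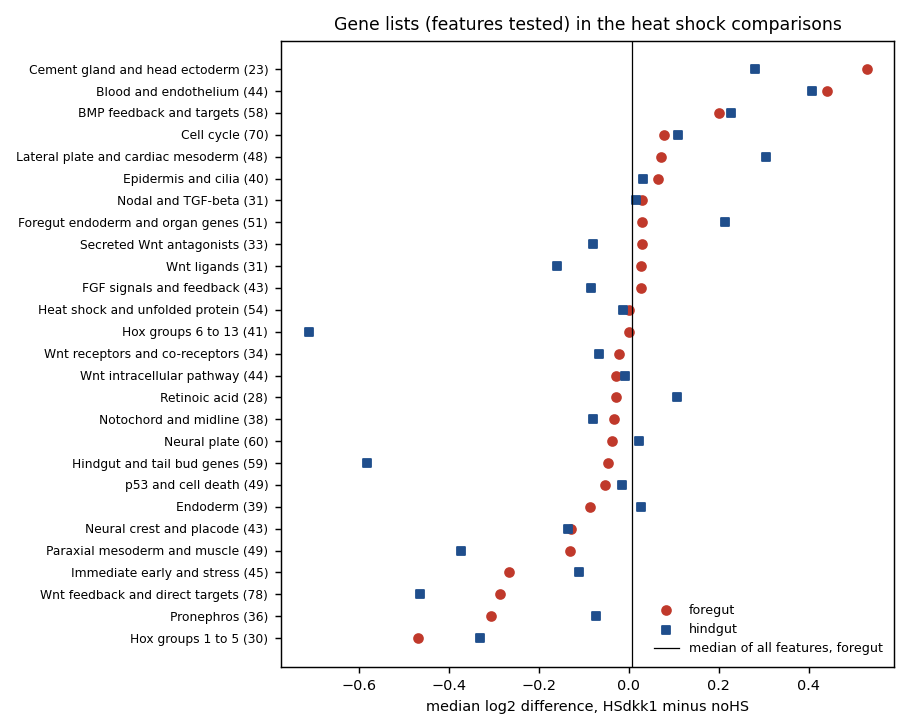
Median log2 difference, HSdkk1 minus noHS, over the tested features of each gene list (number in brackets), for foregut (red circles) and hindgut (blue squares); the lists overlap and carry no test. In foregut the medians run from −0.47 for Hox groups 1 to 5 to 0.53 for cement gland and head ectoderm, and all features lie at 0.01.

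BIO gave many calls, in foregut libraries that share none with the heat shock groups: limma called 1855 of 28863 features (6.43%), 555 higher (1.92%) and 1300 lower (4.5%), a split that was 655 and 923 after median-of-ratios scaling. The count was 1175, 1041, 1175 and 1067 without FG DMSO replicate 2, FG DMSO replicate 3, FG BIO replicate 1 and FG BIO replicate 3. Those at least 2-fold changed were followed into the heat shock comparison. Of the 238 raised by BIO, 79 (33.2%) lay lower in both heated libraries and 7 (2.94%) higher, with a median of −0.23. For the 157 of them with at least 1 TPM in a foregut heat shock group, 72 (45.9%) lay lower and 4 (2.55%) higher, with a median of −0.42. Of the 859 lowered by BIO, 261 (30.4%) lay higher and 28 (3.26%) lower, with a median of 0.28. Over all features the shares were 8.79% lower and 11.8% higher. The raised set lay between −0.23 and −0.17 in each of the 4 pairings of 1 heated with 1 unheated library, and the lowered set between 0.04 and 0.52, lowest between the 2 replicate 2 libraries and 0.12 without FG HSdkk1 replicate 1. None of these features was called in the heat shock comparison. Per gene, cdx4.L was at 1.92 ± 2.01 TPM in FG DMSO and 33.2 ± 11.6 TPM in FG BIO (SD, n = 3), a difference of 3.76 against −1.63 with heat, and nkx2-3.S was at 31.6 ± 6.26 and 0.8 ± 0.638 TPM, a difference of −4.23 against 1.13 with heat. The called gene MGC69088.L also fell with BIO (−0.62, limma adjusted p = 0.00515), but it stood near 0 TPM. Its heat shock call is no independent support for a change, as given above.

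**Figure D5:**
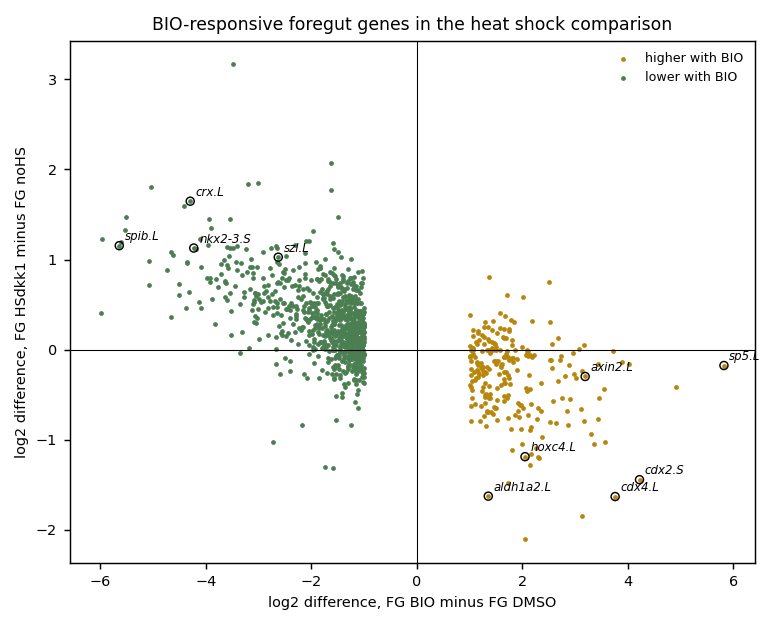
Log2 difference with BIO in foregut on the x axis against the log2 difference with heat shock in foregut on the y axis, for the 238 features raised and 859 lowered by BIO that passed the test there with at least a 2-fold change. Features raised by BIO lie mostly below the horizontal zero line, with a median of −0.23, and features lowered by BIO mostly above it, with a median of 0.28; the 2 comparisons share no library.

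Genes that differ by region were followed in the same way. Between vehicle-treated hindgut and foregut limma called 2155 features (7.47%), 688 higher in hindgut (2.38%) and 1467 lower (5.08%), a split that was 887 and 1000 after median-of-ratios scaling. Of the 560 at least 2-fold higher in hindgut, 172 (30.7%) lay lower in both heated foregut libraries and 25 (4.46%) higher, with a median of −0.20, which was −0.34 over the 417 with at least 1 TPM in a foregut heat shock group. Of the 1073 higher in foregut, 271 (25.3%) lay higher and 54 (5.03%) lower, with a median of 0.20, between 0.04 and 0.35 over the 4 pairings and 0.085 without FG noHS replicate 1. The 78 features that were both hindgut-high and raised by BIO had a median of −0.61, with 42 (53.8%) lower and 1 (1.28%) higher, and the 446 both foregut-high and lowered by BIO a median of 0.47, with 173 (38.8%) higher and 7 (1.57%) lower. Over the 4 pairings the first lay between −0.57 and −0.50 and the second between 0.14 and 0.82, with 0.22 for the second without FG HSdkk1 replicate 1 and 0.72 without replicate 2. These double sets rest on shared FG DMSO controls, so they are not 2 separate choices. Between the germ layers limma called 7636 features (26.5%), 5182 higher in mesoderm (18%) and 2454 lower (8.5%). Without FG endo replicate 1 the split turned to 3774 higher and 4053 lower. Skin RNA was also present in the libraries labelled mesoderm. Of 40 tested epidermis and cilia features, limma called 31 higher there than in endoderm and 3 lower, with a median of 4.17. The mesoderm-high features thus include skin genes. In the heat shock comparison the layer sets lay near 0, at 0.05 for the 4478 mesoderm-high and −0.03 for the 1533 endoderm-high features. Both changed sign without FG HSdkk1 replicate 1, to −0.043 and 0.045. The endoderm-high set was also at 0.058 without FG noHS replicate 2.

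In hindgut explants of the heated group limma called 2 features (0.00693%), LOC100489362.L and the myeloid factor spib.L, both higher, and 676 (2.34%) had an unadjusted p under 0.05. Without the HG noHS columns numbered 12 and 23 and the HG HSdkk1 column numbered 25, the counts were 5, 0 and 15. In the columns numbered 23 and 25, 1 feature with a model ID took 71123 and 71897 TPM, which lowers all other TPM values there. The gene spib.L lies outside the rule for named genes and was chosen after its values were seen. In hindgut spib.L was at 0.28 and 0.48 TPM in HG noHS and 38.4 and 7.96 TPM in HG HSdkk1, a difference of 3.77 (SE 0.52, adjusted p = 0.00268). In foregut it was at 79.6 and 85.1 TPM in FG noHS and 198 and 172 TPM in FG HSdkk1, a difference of 1.15 (SE 0.52) that did not pass. The difference between these 2 effects was 2.62 (SE 0.73, adjusted p = 1), so they were not shown to differ. The gene cdx4.L had higher TPM in hindgut, 122 and 103 unheated and 47.5 and 50.4 heated, with a difference of −1.18 (SE 0.49), and axin2.L went from 23.4 and 16.3 to 13.5 and 5.89 TPM (−1.04, SE 0.41). Neither passed. The foregut gene hhex.L was near 0 in unheated hindgut, at 0.21 and 0.85 TPM, and at 10.2 and 5.18 TPM in HG HSdkk1, a difference of 2.47 (SE 0.62, adjusted p = 0.476). The median of direct Wnt targets was −0.46 in hindgut and −0.29 in foregut, that of Hox groups 1 to 5 −0.33 and −0.47, and that of blood and endothelium 0.41 and 0.44. The test of the difference between regions called 4 features (0.0139%; 8 without FG noHS replicate 1 and 1 without FG HSdkk1 replicate 1), all named by a model ID only, so no difference between foregut and hindgut was shown for any gene of the lists.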

How the data were processed

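Per the labels' protocols, total RNA of independent biological replicates was made into stranded mRNA libraries. The authors deposited 1 table of TPM values per feature for 37 libraries; the submitters' processing notes name FastQC, Trimmomatic and RSEM, and their versions, the genome build and the annotation are not given in the sources used here. TPM keeps no counts, so the depth and the counting error are unknown, and 2 libraries per group limit the precision.

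All 37 columns were used. Of these, 33 were matched to a sample by name and the 4 hindgut heat shock columns only to their group. Features were tested where 2 or more libraries reached 1 TPM (28863 of 40271, 71.7%). On the log2(TPM + 1) scale, 1 linear model of 15 group means was fitted with limma 3.58.1 (trend option, R 4.3.3, 22 residual degrees of freedom). P-values were two-sided and adjusted by Benjamini-Hochberg over all features within each of 6 comparisons. The code was tested on simulated data. Figures were drawn with matplotlib 3.10.9.

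The comparison and the 27 gene lists were chosen with earlier results of these data known, and some list symbols were matched to the table's spelling after it was seen. The rule for named genes took dkk1 and a set of Wnt, endoderm and BMP candidates. It added called genes, or else those with the smallest p, up to 14 per direction, each with a symbol, its other homeolog and 5 TPM or more as the mean of the group where it was higher. It also took up to 4 members of each list by smallest p. Tissue was checked with hhex, sfrp5, foxa2, sox17a, cdx2, cdx4, hoxa9, actc1, shh, itln1, krt12 and other markers. Gene names are the table's own, and RefSeq's gene table had no entry for LOC100489362.L and MGC69088.L. The rule does not count such LOC and MGC names as symbols. LOC100489362.L was added as called in both regions, and MGC69088.L as called in the opposite direction with BIO.

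Each choice was changed in turn: the pseudocount (0.1 or 5), the filter (none, or 5 TPM), the scaling (median-of-ratios), the homeologs (added together), a replicate block, a fit to the compared groups only, and each library left out. A fit to the 8 heat shock libraries, with and without the block, and list medians without each library were added after seeing the data.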

Additional observations from a re-analysis of the deposited data

Results flagged for a closer look

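The interaction term in limma called a difference in heat shock effect between hindgut and foregut for 4 features. All are named by a model ID only and stand at or near 0 TPM in at least 1 of the 4 groups. The hindgut effect minus the foregut effect was −5.31 on the log2 scale for Xelaev18007944m.g. That feature was listed at 0 in both FG noHS libraries and at 20.9 and 13.2 TPM in FG HSdkk1, and in hindgut it was at 49.4 and 44.1 TPM unheated and 22.1 and 18.5 TPM heated. The others were Xelaev18018961m.g at −1.70, Xelaev18006344m.g at 1.47 and Xelaev18015913m.g at 1.69. Groups of 2 libraries were too small to look for single libraries far from the rest of their group.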

How the results depend on the processing

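The count of 7 features in the foregut heat shock comparison was 31 without a filter, 1 with a filter at 5 TPM, 0 with the groups alone, 0 with the 8 heat shock libraries and 0 there with the replicate block, and 3 to 20 with a library left out. The hindgut count of 2 was 5 at a pseudocount of 0.1, 25 without a filter, 1 at 5 TPM, 11 with median-of-ratios scaling, 0 with the groups alone, 0 with the 8 libraries, and 0 to 15 with a library left out. The 4 for the difference between regions became 1 at a pseudocount of 5, 27 without a filter, 1 at 5 TPM, 0 with the groups alone and 0 with the 8 libraries, and 1 to 8 with a library left out. With the groups alone, BIO gave 1114, region 841 and germ layer 863, and BIO 1041 to 1855 with a library left out. The cause of these shifts was not tested.

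The replicate numbers are not stated to pair samples. Deviations from the group means correlated at 0.502 between the replicate 1 libraries of the 2 foregut groups. With 2 libraries per group, the replicate 2 libraries give the same value by construction. With the replicate number as a block 7 features were called in foregut, 5 for the difference between regions, where it covers only the foregut libraries because the hindgut heat shock columns carry no replicate number of their samples, and 2845 with BIO.

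The 2 called named genes kept their sign throughout. Uncalled values changed sign with homeologs summed for lef1.S (−0.057), sfrp5.S (0.091), fzd6.S (0.59) and mpped2.S (0.67). With a library left out, values on both sides of 0 ran from −0.67 to 0.069 for axin2.L, −0.42 to 1.55 for hhex.L, −0.17 to 0.36 for id3.L, −0.20 to 0.31 for id3.S, −1.54 to 0.39 for pdx1.L, −0.74 to 0.21 for pdx1.S, −0.25 to 0.18 for sfrp5.S, −0.36 to 0.0083 for sp5.L, −0.47 to 0.14 for fzd6.S, −0.27 to 0.14 for timm9.L, −0.26 to 0.13 for dkk1.S, −0.56 to 0.20 for lef1.L, −0.069 to 0.23 for msx1.S, −0.086 to 0.27 for msx1.L, −0.063 to 1.18 for cxcr2.S and −0.10 to 0.44 for lef1.S. Without FG HSdkk1 replicate 2, rac2.L passed (adjusted p = 0.0033 in limma). Over the alternatives the medians of the BIO sets kept their sign, from −0.43 to −0.076 for raised and from 0.12 to 0.44 for lowered features, as did those of the region sets, from −0.30 to −0.093 for hindgut-high and from 0.085 to 0.31 for foregut-high features. Groups of 2 libraries and values without counts limit what can be detected.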
